A study of Homo sapiens with 9 samples.

Results

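The genes described are 48 interferon-stimulated genes, a listed set, measured in MCF10A cells that carried deltaNp63beta, deltaNp63alpha or an empty vector. They were found by mapping the Ensembl gene IDs of the deposited tables to gene symbols, and each of the 48 matched 1 of 41857 IDs. Poly(A) RNA was sequenced from 3 biological replicates of each group, 9 libraries in all.

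MCF10A cells are a human line of non-tumorigenic breast epithelium, kept here in medium with horse serum, epidermal growth factor, hydrocortisone, cholera toxin and insulin. The deltaNp63beta and deltaNp63alpha groups expressed a human TP63 isoform that lacks the N-terminal transactivation domain of the full-length protein. Both isoforms bind DNA through the same domain, and only their C-terminal ends differ. The vector group carried the empty construct. Doxycycline, the inducer, was given to every culture at 500 ng/mL for 24 h, including the vector cultures, and all are labelled wild type in genotype. The labels do not say whether a line is 1 clone or a pool, and a library without doxycycline was not analysed here.

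Interferons are secreted proteins that bind cell-surface receptors and activate the JAK kinases. For type I and type III interferons the kinases act on STAT2, which joins IRF9 in a complex that binds the interferon-stimulated response element (ISRE) in promoters. Type II interferon acts mainly through the gamma-activated sequence (GAS) and through IRF1. The genes switched on in this way encode antiviral effectors, sensors of foreign nucleic acid, the ubiquitin-like ISG15 system and transcription factors of the pathway itself. Epithelial cells also express many of them at a basal level.

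Values below are normalized estimated counts per gene as deposited by the authors. They are not divided by gene length, so levels are compared between libraries and not between genes. Library sums lay between 22.5 and 23.2 M, and the spacing of the lowest values put the depth at about 20.4 to 24.5 M estimated fragments. Group values are mean ± SD over n = 3 libraries. A change is the log2 fold change with its SE, taken on log2(value + 1) with limma over the 15108 genes that reached a value of 10 in at least 3 libraries. A gene is said to rise or fall where its Benjamini-Hochberg adjusted p over all these genes was under 0.05. Of the 48 interferon-stimulated genes, 46 passed this filter on low values, and 44 of the 46 had at least 10 in each of the 9 libraries. IRF7, a transcription factor that amplifies type I interferon production, reached at most 4.72 and was not tested. EPSTI1, which was found as an epithelial-stromal interaction gene, reached 26.4 in deltaNp63beta replicate 2 and was not tested either.

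TP63, the gene of the transgene, had 6719, 4183 and 4870 in the deltaNp63beta libraries and 4426, 6983 and 6961 in the deltaNp63alpha libraries. With vector it had 316, 332 and 259. The value is a total per gene, so it separates neither transgene from endogenous transcripts nor the isoforms from each other. TP63 rose by 4.09 ± 0.21 with deltaNp63beta (adjusted p = 6.2e-07) and by 4.31 ± 0.21 with deltaNp63alpha (adjusted p = 1.91e-06). The 6 epithelial markers CDH1, KRT5, KRT17, KRT18, LAMB3 and ITGB4 summed to 301497 to 308365 with deltaNp63beta, 220670 to 237273 with deltaNp63alpha and 138775 to 146769 with vector, although LAMB3 fell with deltaNp63beta by 0.51 against vector. Of 9 leukocyte markers, PTPRC, CD3E and MS4A1 stayed under 5 in every library, and the 9 summed to 1247 to 1369 with deltaNp63beta, 1303 to 1647 with deltaNp63alpha and 1872 to 2092 with vector. Among them CD14 and LAPTM5 rose with deltaNp63beta against vector by 2.77 and 0.96, while ITGB2, CSF1R and CD68 fell by 1.87, 0.91 and 0.86. The 7 fibroblast markers summed to 12496 to 13571 with deltaNp63beta, 7787 to 7912 with deltaNp63alpha and 10601 to 10942 with vector, and the 5 endothelial markers to 110 to 140 with deltaNp63beta, 166 to 172 with deltaNp63alpha and 204 to 275 with vector. Most of the fibroblast sum was FBLN1, at 12426 ± 543 with deltaNp63beta, 7224 ± 105 with deltaNp63alpha and 9233 ± 177 with vector, while DCN averaged 166 ± 29.3 with deltaNp63beta, 349.6 ± 8.07 with deltaNp63alpha and 1210.5 ± 2.23 with vector. The part of these shifts in the results below was not tested. Every library came from the MCF10A line. In bulk RNA, a changed share of its cells in a given state and changed RNA per cell cannot be told apart.

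With deltaNp63beta, most of the interferon-stimulated genes were higher than with vector, and OASL, DDX60, HERC6, IFITM3 and OAS1 rose more than 2-fold. Of the 46 genes tested, 27 rose, 2 fell and 17 did not pass the test. Over all 15108 genes tested, 41.3% were called in this comparison, 21.8% higher and 19.5% lower. The median change of the 46 was 0.37, beside -0.00 for all genes tested. At least 2-fold rises were called for 5 of the 46 and for 4.03% of all genes, and at least 2-fold falls for 0 of the 46 and for 3.98% of all genes. With deltaNp63alpha, set against the same vector libraries, 1 of the 46 rose, 5 fell and 40 did not pass, where 8.13% of all genes were called higher and 6.37% lower (14.5% in all). The median change there was -0.09, beside -0.01 for all genes. At least 2-fold rises were called for 0 of the 46 and for 1.4% of all genes, and at least 2-fold falls for 1 of the 46, IFI44L, and for 0.86% of all genes.

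**Figure D1:**
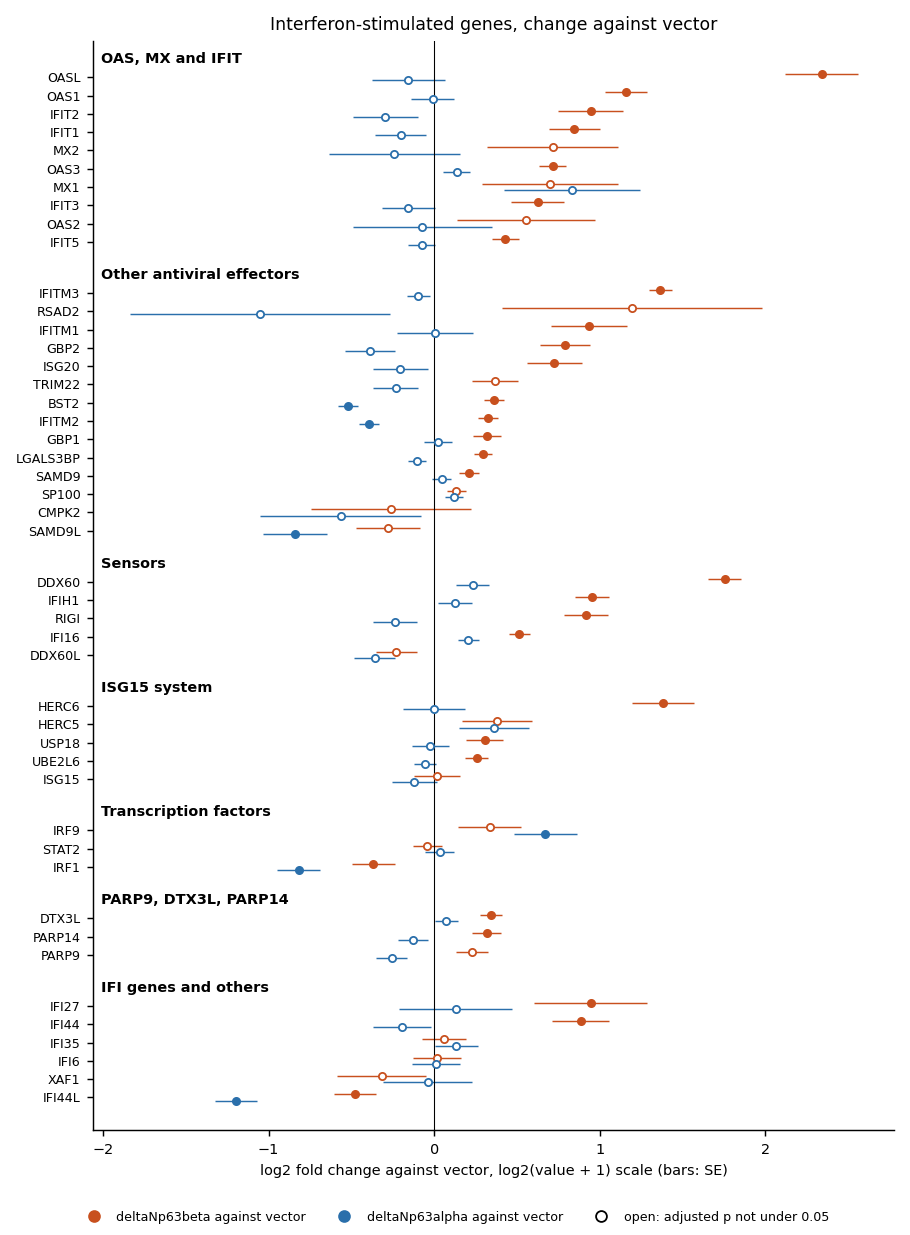
Log2 fold change against vector (x axis, log2(value + 1) scale, bars are SE) of the 46 tested interferon-stimulated genes, grouped by role, for deltaNp63beta (orange) and deltaNp63alpha (blue). Filled points have an adjusted p under 0.05. The deltaNp63beta points lie mainly to the right of 0, up to 2.34 for OASL, and the filled deltaNp63alpha points lie to the left except for IRF9.

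The direct comparison of deltaNp63beta with deltaNp63alpha tested the difference between the isoforms. Here 31 of the 46 genes were higher with deltaNp63beta, 0 were lower and 15 did not pass, where 32.9% of all genes were called, 17.4% higher and 15.5% lower. None of the 46 was lower at an unadjusted p under 0.05 either, but without the mean-variance trend in limma 1 gene, XAF1, was called lower (adjusted p = 0.0208). The median difference was 0.57, beside -0.00 for all genes, and 11 of the 46 were at least 2-fold higher, beside 2.69% of all genes, while 2.77% of all genes and 0 of the 46 were at least 2-fold lower. The comparisons with vector share the vector libraries, so their calls are not independent of each other. In this set, 25 of the 46 genes were called higher with deltaNp63beta both against vector and against deltaNp63alpha, beside 13.8% of all genes, and these comparisons share the deltaNp63beta libraries. In no comparison were 12 of the 46 called, beside 50.9% of all genes. RSAD2, counted in the 31 and in the 11, would have missed the filter on low values without the deltaNp63beta libraries. Of the other 45 genes, 30 were higher with deltaNp63beta, and their median difference was 0.56.

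The separation showed in single libraries. In each library the median over the 46 genes of log2(value + 1) minus the gene's mean over 9 libraries was taken. It was 0.35, 0.28 and 0.31 in the deltaNp63beta libraries, -0.11, -0.30 and -0.24 in the deltaNp63alpha libraries and -0.13, -0.12 and -0.04 in the vector libraries. The deltaNp63beta libraries stood above the other 6, while deltaNp63alpha and vector overlapped. The same median over all tested genes lay between 0.00 and 0.01 in each library. Of the 46 genes, 41, 39 and 37 lay above their own mean in the deltaNp63beta libraries, against 15, 8 and 9 with deltaNp63alpha and 12, 13 and 19 with vector. Each gene's mean includes the deltaNp63beta libraries, so high values there place the other libraries below it. Such counts were not taken over all tested genes.

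**Figure D2:**
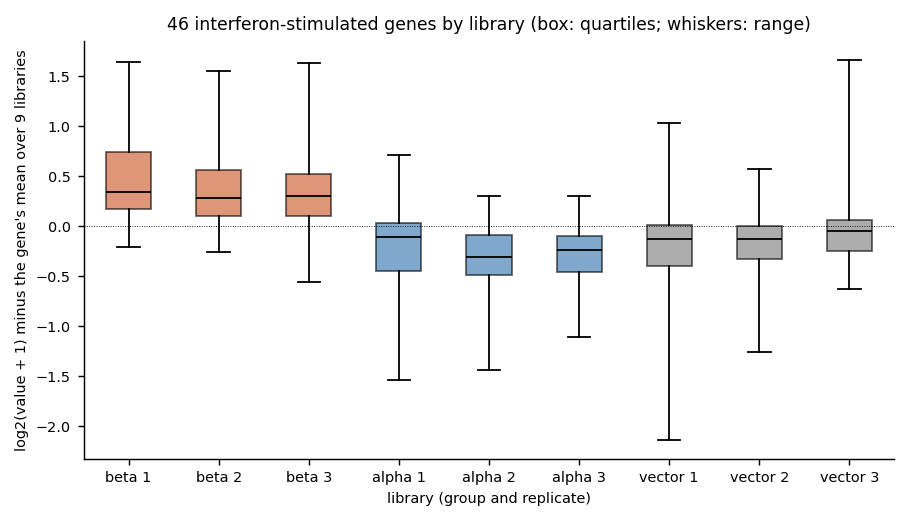
Deviation of each of the 46 tested interferon-stimulated genes from its own mean over 9 libraries (y axis, log2(value + 1) units), by library (x axis; beta and alpha stand for deltaNp63beta and deltaNp63alpha, numbers for replicates). Boxes are quartiles with the median, and whiskers span the range. The 3 deltaNp63beta medians lie at 0.28 to 0.35 and the other 6 at or below -0.04.

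The OAS, MX and IFIT families are the classical antiviral effectors. OAS enzymes make 2'-5' oligoadenylate that activates RNase L, MX proteins are dynamin-like GTPases that trap viral nucleocapsids, and IFIT proteins bind viral RNA. Of the 10 genes of this group, 7 rose and 0 fell with deltaNp63beta against vector, 0 passed with deltaNp63alpha, and 7 were higher with deltaNp63beta than with deltaNp63alpha. All 10 had a positive estimate with deltaNp63beta, between 0.43 and 2.34. For this and each later role group, the shares of all genes called with deltaNp63beta against vector were 21.8% higher and 19.5% lower. With deltaNp63alpha against vector 14.5% of all genes were called, and 17.4% were called higher with deltaNp63beta than with deltaNp63alpha.

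OASL, an OAS-like protein without synthetase activity that enhances RIG-I signalling, changed most of the 46 genes in fold terms (chromosome 12, 121019111 to 121039242, minus strand, ENSG00000135114). OASL had 325, 305 and 323 in the deltaNp63beta libraries, against 71.2, 37.5 and 63.6 with deltaNp63alpha and 63.9, 55.7 and 66.6 with vector. All 3 deltaNp63beta libraries were above all others, and deltaNp63alpha and vector overlapped. The change was 2.34 ± 0.22 for deltaNp63beta against vector (5.06-fold, adjusted p = 8.23e-06) and 2.50 ± 0.22 against deltaNp63alpha (adjusted p = 8.57e-06). For deltaNp63alpha against vector it was -0.16 ± 0.22 (adjusted p = 0.708).

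OAS1, a synthetase, had 404, 413 and 350.5 with deltaNp63beta, against 203, 165 and 153 with deltaNp63alpha and 166, 174 and 179.5 with vector. It rose by 1.16 ± 0.13 against vector (adjusted p = 3e-05) and by 1.17 ± 0.13 against deltaNp63alpha (adjusted p = 4.75e-05). The deltaNp63alpha and vector means were alike at 173 ± 25.8 and 173 ± 6.6. OAS3, the largest of the synthetases, averaged 2230.2 ± 146 with deltaNp63beta, 1494 ± 144 with deltaNp63alpha and 1358 ± 106 with vector, and rose by 0.72 ± 0.08 against vector (adjusted p = 3.88e-05). OAS2 stayed under 29 in every library and gave 0.55 ± 0.42 (adjusted p = 0.32). The 3 OAS genes lie side by side on chromosome 12, 5129 and 5145 bases apart.

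The IFIT genes form a cluster on chromosome 10, and all 4 measured members rose with deltaNp63beta. IFIT1 had 247, 202 and 189.7 with deltaNp63beta, against 109, 87.4 and 110.5 with deltaNp63alpha and 113, 113 and 126 with vector. IFIT2 had 150.0, 179 and 199.9 with deltaNp63beta, against 69.2, 60.3 and 95.1 with deltaNp63alpha and 93.6, 98.1 and 80.5 with vector. In both genes the deltaNp63beta libraries stood apart from the other 6. The changes against vector were 0.85 ± 0.15 for IFIT1 (adjusted p = 0.00107), 0.95 ± 0.20 for IFIT2 (adjusted p = 0.00255), 0.62 ± 0.16 for IFIT3 (adjusted p = 0.0092) and 0.43 ± 0.08 for IFIT5 (adjusted p = 0.00124). Against deltaNp63alpha they were 1.05, 1.24, 0.78 and 0.51, all past the threshold. With deltaNp63alpha against vector all 4 estimates were negative, from -0.29 to -0.08, and none passed. Where genes of the OAS, MX, IFIT, GBP or IFITM families have stretches of sequence in common, they can share reads. How alike the genes are was not examined here. How the counting split such reads is not stated, so their division among close relatives is uncertain.

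MX1 and MX2 were low and did not pass in any comparison. MX1 had 86.7, 36.2 and 35.1 with deltaNp63beta, 69.3, 45.2 and 46.6 with deltaNp63alpha and 41.3, 17 and 35 with vector. Its estimates against vector were 0.70 ± 0.41 with deltaNp63beta (adjusted p = 0.202) and 0.83 ± 0.41 with deltaNp63alpha (adjusted p = 0.224). MX2 averaged 35.2 ± 6.63 with deltaNp63beta, 18.8 ± 8.9 with deltaNp63alpha and 21.4 ± 6.76 with vector. The difference between the isoforms in MX2 was 0.96 ± 0.40 (adjusted p = 0.0873), and it passed at an adjusted p of 0.0386 only without deltaNp63alpha replicate 1.

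**Figure D3:**
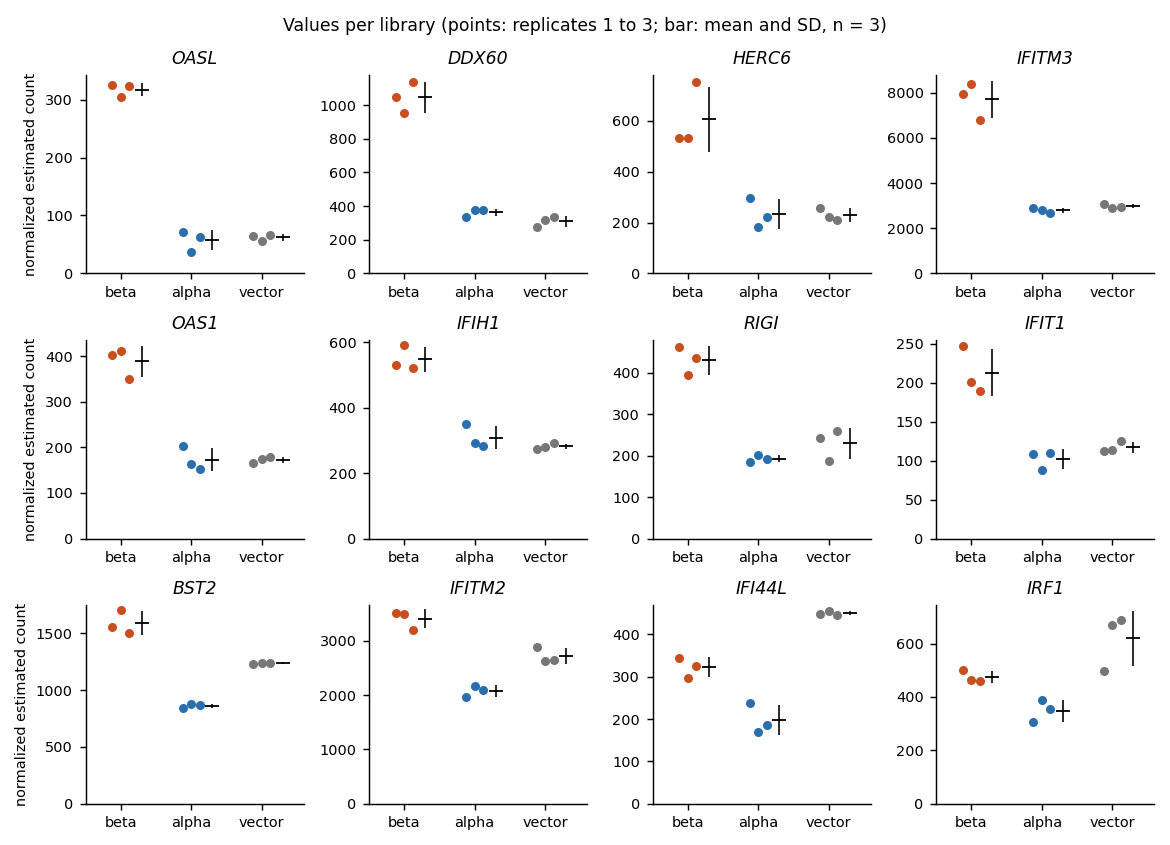
Normalized estimated counts (y axis, each panel from 0) of 12 interferon-stimulated genes in each library of deltaNp63beta (beta), deltaNp63alpha (alpha) and vector. Points are replicates and the bar is mean and SD (n = 3). In the first 8 panels the deltaNp63beta points lie above all others, BST2 and IFITM2 run beta, vector, alpha from high to low, and IFI44L is highest with vector.

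Of the 5 sensors of foreign nucleic acid and their relatives, 4 rose with deltaNp63beta against vector, 4 were higher than with deltaNp63alpha, and 0 passed with deltaNp63alpha against vector. DDX60, a helicase that promotes RIG-I signalling (chromosome 4, 168216293 to 168318807, minus strand, ENSG00000137628), had 1048, 953 and 1138 with deltaNp63beta, against 338, 374 and 377 with deltaNp63alpha and 276, 314 and 338 with vector. The deltaNp63beta libraries were far above the rest, and DDX60 rose by 1.76 ± 0.10 against vector (3.38-fold, adjusted p = 1.49e-07) and by 1.52 ± 0.10 against deltaNp63alpha (adjusted p = 9.72e-07). The estimate for deltaNp63alpha against vector was 0.23 ± 0.10 (adjusted p = 0.162).

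IFIH1, which encodes the sensor of long double-stranded RNA MDA5, had 530.2, 592 and 521 with deltaNp63beta, against 349, 292 and 283 with deltaNp63alpha and 273, 280.0 and 291 with vector. RIGI, the sensor of 5'-triphosphate RNA, had 464, 394 and 435 with deltaNp63beta, against 185, 203 and 191 with deltaNp63alpha and 242, 187 and 259 with vector. Both rose against vector, IFIH1 by 0.96 ± 0.10 (adjusted p = 2.45e-05) and RIGI by 0.92 ± 0.13 (adjusted p = 0.000208), and against deltaNp63alpha by 0.83 and 1.15. IFI16, a nuclear DNA sensor, averaged 3858 ± 66 with deltaNp63beta, 3122 ± 306 with deltaNp63alpha and 2701 ± 66.9 with vector. It rose by 0.51 ± 0.06 with deltaNp63beta against vector (adjusted p = 6.13e-05). With deltaNp63alpha IFI16 gave 0.21 ± 0.06 (adjusted p = 0.0511), all 3 libraries above vector, and it passed without deltaNp63alpha replicate 3 (adjusted p = 0.0143) and in a fit of genes with a mean of at least 50 (adjusted p = 0.043).

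DDX60L, the neighbour of DDX60 at 37927 bases on the same strand, did not pass in any comparison. It averaged 228 ± 10.4 with deltaNp63beta, 209 ± 28.6 with deltaNp63alpha and 268 ± 23.1 with vector. Its estimates against vector were -0.23 ± 0.12 with deltaNp63beta (adjusted p = 0.168) and -0.36 ± 0.12 with deltaNp63alpha (adjusted p = 0.0825), and without deltaNp63alpha replicate 1 DDX60L was called lower with deltaNp63alpha (adjusted p = 0.0363).

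Among 14 other antiviral effectors, 9 rose and 0 fell with deltaNp63beta against vector, 0 rose and 3 fell with deltaNp63alpha, and 11, RSAD2 included, were higher with deltaNp63beta than with deltaNp63alpha. IFITM proteins block the fusion of enveloped viruses with endosomal and plasma membranes. IFITM3 (chromosome 11, 319669 to 327537, minus strand, ENSG00000142089) had 7938, 8369 and 6808 with deltaNp63beta, against 2872, 2812 and 2678 with deltaNp63alpha and 3071, 2910.0 and 2949 with vector. It rose by 1.37 ± 0.07 against vector (2.58-fold, adjusted p = 4.57e-08), and against deltaNp63alpha by 1.46 ± 0.07 (adjusted p = 6.58e-08). IFITM1 had 101, 108 and 81.4 with deltaNp63beta, against 55.2, 39.8 and 56.5 with deltaNp63alpha and 43.8, 62.4 and 45 with vector. It rose by 0.93 ± 0.23 against vector (adjusted p = 0.00678) and by the same amount against deltaNp63alpha (adjusted p = 0.00917).

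IFITM2 and BST2 went opposite ways with the isoforms. IFITM2 (chromosome 11, 307631 to 315272, plus strand, ENSG00000185201) had 3517, 3495 and 3202 with deltaNp63beta, 1958, 2173 and 2088 with deltaNp63alpha and 2888, 2633 and 2641 with vector. BST2, or tetherin, which holds budding virions at the cell surface (chromosome 19, 17402939 to 17405648, minus strand, ENSG00000130303), had 1559, 1706 and 1502 with deltaNp63beta, 844, 875 and 865 with deltaNp63alpha and 1231, 1238 and 1239 with vector. In both genes the 3 groups did not overlap, with vector in the middle. IFITM2 rose by 0.32 ± 0.06 with deltaNp63beta (adjusted p = 0.00116), and with deltaNp63alpha it fell by 0.39 ± 0.06 (adjusted p = 0.00106). BST2 rose by 0.36 ± 0.06 with deltaNp63beta (adjusted p = 0.000552), and with deltaNp63alpha it fell by 0.52 ± 0.06 (adjusted p = 0.000127). The isoforms themselves differed by 0.72 ± 0.06 in IFITM2 (adjusted p = 5.41e-06) and by 0.88 ± 0.06 in BST2 (adjusted p = 1.1e-06). IFITM1 overlaps IFITM2 by 1767 bases on the same strand in GENCODE, so reads may be split between them.

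GBP2, an interferon-inducible GTPase, had 657, 573 and 434 with deltaNp63beta, against 231, 249.95 and 243 with deltaNp63alpha and 353, 272 and 327 with vector. It rose by 0.79 ± 0.15 against vector (adjusted p = 0.00136) and by 1.18 ± 0.15 against deltaNp63alpha (adjusted p = 0.000137). ISG20, an RNA exonuclease, had 177, 146 and 152 with deltaNp63beta, against 74.2, 80.5 and 93.1 with deltaNp63alpha and 82, 97.4 and 107 with vector. Its rise was 0.72 ± 0.17 against vector (adjusted p = 0.00463) and 0.93 ± 0.17 against deltaNp63alpha (adjusted p = 0.00136). In GBP2 and ISG20 alike the deltaNp63beta libraries lay above the other 6. Smaller rises with deltaNp63beta against vector were called for GBP1 (0.32 ± 0.08, adjusted p = 0.0106), for LGALS3BP, a secreted glycoprotein (0.30 ± 0.05, adjusted p = 0.00113), and for SAMD9, a translation-inhibiting restriction factor (0.21 ± 0.06, adjusted p = 0.0137). SAMD9 lost its call without deltaNp63beta replicate 1 (adjusted p = 0.052).

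RSAD2, which encodes viperin, an enzyme that makes a chain-terminating nucleotide, was low and variable. It had 32.9, 19.7 and 29.8 with deltaNp63beta, 3.34, 5.42 and 6.21 with deltaNp63alpha and 1.87, 14.7 and 38.9 with vector. The vector libraries spanned the whole range of the other 6, and RSAD2 did not pass against vector with either isoform. RSAD2 reached 10 in 5 libraries, 2 of them outside deltaNp63beta, so it was tested only because of the deltaNp63beta libraries and its difference between the isoforms is given as a description. Between the isoforms it was higher by 2.25 ± 0.79 with deltaNp63beta (adjusted p = 0.0477), a call that was lost when any 1 deltaNp63beta or deltaNp63alpha library, or vector replicate 2, was left out (adjusted p between 0.0609 and 0.124). Without vector replicate 1, RSAD2 was called lower with deltaNp63alpha against vector (adjusted p = 0.0288), and without vector replicate 3 it was called higher with deltaNp63beta (adjusted p = 0.0487). CMPK2, the adjoining nucleotide kinase gene on the opposite strand, overlaps RSAD2 by 830 bases and averaged 23.6 ± 10.3 with deltaNp63beta, 18.7 ± 7.62 with deltaNp63alpha and 29.9 ± 16 with vector. Whether counting used strand is not stated, so how reads in such overlaps were assigned is not known here.

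TRIM22, a restriction factor of the TRIM family, was called in the direct comparison only, where it was higher with deltaNp63beta by 0.60 ± 0.14 (adjusted p = 0.00589). Against vector it gave 0.37 ± 0.14 (adjusted p = 0.0504), and it passed without deltaNp63alpha replicate 1 (adjusted p = 0.0167), deltaNp63alpha replicate 3 (adjusted p = 0.0262) or deltaNp63beta replicate 1 (adjusted p = 0.0381). SP100, a component of PML nuclear bodies, averaged 1599.8 ± 87.7 with deltaNp63beta, 1581 ± 16.4 with deltaNp63alpha and 1456 ± 44 with vector. Its estimate of 0.13 ± 0.05 with deltaNp63beta missed the threshold (adjusted p = 0.0721) and reached it without deltaNp63beta replicate 3 (adjusted p = 0.0275).

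The ISG15 system attaches the ubiquitin-like protein ISG15 to other proteins. Of its 5 genes, 3 rose with deltaNp63beta against vector, 0 passed with deltaNp63alpha, and 3 were higher with deltaNp63beta than with deltaNp63alpha. HERC6, a HECT-type ligase that is the main ISG15 ligase in mice (chromosome 4, 88378739 to 88443111, plus strand, ENSG00000138642), had 534, 532 and 754 with deltaNp63beta, against 297, 182 and 222 with deltaNp63alpha and 259, 221 and 209 with vector. The deltaNp63beta libraries lay above the other 6, while deltaNp63alpha and vector overlapped, and HERC6 rose by 1.38 ± 0.19 against vector (adjusted p = 0.000137) and against deltaNp63alpha alike (adjusted p = 0.000221). HERC5, its neighbour at 14005 bases and the main ISG15 ligase in human cells, had 58.7, 47.3 and 55.2 with deltaNp63beta, 54.9, 55.3 and 48.9 with deltaNp63alpha and 38, 48.9 and 36.9 with vector, and gave 0.38 ± 0.21 with deltaNp63beta (adjusted p = 0.182).

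UBE2L6, the conjugating enzyme for ISG15, rose by 0.26 ± 0.07 with deltaNp63beta against vector (adjusted p = 0.0106). USP18, which removes ISG15 and restrains the type I receptor, had 285, 284 and 276 with deltaNp63beta, 239, 225 and 208 with deltaNp63alpha and 205, 226 and 253 with vector. Its rise of 0.31 ± 0.11 against vector (adjusted p = 0.0471) was lost when any 1 library other than vector replicate 3 was left out (adjusted p between 0.0519 and 0.16). Its difference of 0.33 ± 0.11 between the isoforms (adjusted p = 0.0425) did not survive leaving out any 1 library other than deltaNp63alpha replicate 1 and vector replicates 1 and 3 (adjusted p between 0.0552 and 0.138). ISG15 itself averaged 145 ± 8.14 with deltaNp63beta, 132 ± 7.69 with deltaNp63alpha and 144 ± 17.3 with vector, and its estimate with deltaNp63beta was 0.02 ± 0.14 (adjusted p = 0.934).

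Among the transcription factors of the pathway the counts were mixed. Of the 3 tested, 0 rose and 1 fell with deltaNp63beta, and 1 rose and 1 fell with deltaNp63alpha. Of all genes, 21.8% were called higher and 19.5% lower with deltaNp63beta, and 8.13% and 6.37% with deltaNp63alpha. STAT2 had 589, 643 and 611 with deltaNp63beta, 627, 637 and 675 with deltaNp63alpha and 705, 618 and 577 with vector. The groups overlapped, and the estimates against vector were -0.04 ± 0.09 with deltaNp63beta (adjusted p = 0.737) and 0.03 ± 0.09 with deltaNp63alpha (adjusted p = 0.855). IRF9, the DNA-binding partner of STAT2 (chromosome 14, 24161053 to 24166565, plus strand, ENSG00000213928), had 89.8, 104 and 94.1 with deltaNp63beta, 128, 119 and 117 with deltaNp63alpha and 66.8, 64.3 and 101 with vector. It rose by 0.67 ± 0.19 with deltaNp63alpha (adjusted p = 0.037). That call was lost when any 1 deltaNp63alpha library was left out, and likewise for vector replicates 1 and 2 (adjusted p between 0.0815 and 0.124). With deltaNp63beta IRF9 gave 0.34 ± 0.19 (adjusted p = 0.184) and passed without vector replicate 3 (adjusted p = 0.0314).

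IRF1, which is induced mainly by type II interferon and binds ISRE-like sites (chromosome 5, 132481609 to 132490798, minus strand, ENSG00000125347), had 502, 464 and 459 with deltaNp63beta, 304, 387 and 355 with deltaNp63alpha and 499, 670.1 and 688 with vector. Vector replicate 1 fell among the deltaNp63beta values, and the deltaNp63alpha libraries were below both other groups. IRF1 fell by 0.82 ± 0.13 with deltaNp63alpha (adjusted p = 0.0015). With deltaNp63beta it fell by 0.37 ± 0.13 (adjusted p = 0.0427), and the call went when any 1 library other than deltaNp63alpha replicates 1 and 2 and vector replicate 1 was left out (adjusted p between 0.054 and 0.152). Between the isoforms IRF1 was higher with deltaNp63beta by 0.45 ± 0.13 (adjusted p = 0.0216), lost without deltaNp63alpha replicate 1 (adjusted p = 0.0812) or deltaNp63beta replicate 1 (adjusted p = 0.0643). Without the mean-variance trend IRF1 was not called with deltaNp63beta against vector (adjusted p = 0.0795) or against deltaNp63alpha (adjusted p = 0.0507). IRF7 had 1.57, 0 and 4.27 with deltaNp63beta, 0, 1.14 and 2.28 with deltaNp63alpha and 1.09, 2.2 and 4.72 with vector, too low for any comparison.

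PARP9 and DTX3L encode a macrodomain protein and a ubiquitin ligase that work as a complex, and PARP14 is an ADP-ribosyltransferase. With deltaNp63beta against vector DTX3L rose by 0.34 ± 0.07 (adjusted p = 0.002) and PARP14 by 0.32 ± 0.09 (adjusted p = 0.0148). PARP14 lost its call at an adjusted p of 0.0549 without deltaNp63beta replicate 3 and of 0.0543 without vector replicate 2. PARP9 averaged 633 ± 35.7 with deltaNp63beta, 454 ± 57.2 with deltaNp63alpha and 540.4 ± 6.1 with vector. It gave 0.23 ± 0.10 with deltaNp63beta against vector (adjusted p = 0.0817) and passed without deltaNp63alpha replicate 3 (adjusted p = 0.0496). With deltaNp63alpha PARP9 gave -0.26 ± 0.10 (adjusted p = 0.105) and passed as lower without deltaNp63alpha replicate 1 (adjusted p = 0.0372). All 3 genes were higher with deltaNp63beta than with deltaNp63alpha, by 0.27 to 0.48. PARP9 and DTX3L overlap by 340 bases on opposite strands.

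Among 7 genes named for induction by interferon or listed beside them, 6 were tested. Of these, 2 rose and 1 fell with deltaNp63beta against vector, where 21.8% of all genes were called higher and 19.5% lower. With deltaNp63alpha 0 rose and 1 fell, where 8.13% of all genes were called higher and 6.37% lower. IFI44L (chromosome 1, 78619922 to 78646145, plus strand, ENSG00000137959), a gene often used in blood signatures of type I interferon, had 344, 297 and 325 with deltaNp63beta, 238, 170.1 and 185 with deltaNp63alpha and 447, 455 and 446 with vector. It was highest with vector and lowest with deltaNp63alpha, and the 3 groups did not overlap. IFI44L fell by 1.19 ± 0.13 with deltaNp63alpha (adjusted p = 7.28e-05) and by 0.48 ± 0.13 with deltaNp63beta (adjusted p = 0.0102), and it was 0.71 ± 0.13 higher with deltaNp63beta than with deltaNp63alpha (adjusted p = 0.00131).

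IFI44 lies 3650 bases from IFI44L on the same strand and had 285, 237 and 238 with deltaNp63beta, against 126, 124 and 109 with deltaNp63alpha and 108, 174 and 135 with vector. Unlike its neighbour it rose with deltaNp63beta, by 0.88 ± 0.17 against vector (adjusted p = 0.00184) and by 1.08 ± 0.17 against deltaNp63alpha (adjusted p = 0.000714). SAMD9 and SAMD9L, paralogs 12031 bases apart on chromosome 7, differed too. SAMD9L had 68.5, 91.5 and 97.6 with deltaNp63beta, 57.9, 52.6 and 61.1 with deltaNp63alpha and 119, 99.9 and 92.4 with vector. It fell by 0.84 ± 0.19 with deltaNp63alpha (adjusted p = 0.0129), a call that was lost without vector replicate 1 (adjusted p = 0.0545). Between the isoforms SAMD9L was 0.56 ± 0.19 higher with deltaNp63beta (adjusted p = 0.0432). Leaving out any 1 library other than deltaNp63beta replicate 1 and vector replicate 1 took that call away (adjusted p between 0.0507 and 0.136). The difference of the changes between such neighbours was not tested.

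IFI27, a small membrane protein and a common marker of interferon exposure, was low, with 52.2, 39.2 and 35.7 in deltaNp63beta libraries, 27.3, 20 and 23.3 with deltaNp63alpha and 15.4, 18.1 and 34.1 with vector. Its rise of 0.95 ± 0.34 against vector (adjusted p = 0.0446) was lost when any 1 library other than vector replicate 3 was left out (adjusted p between 0.054 and 0.144). IFI6 and IFI35 did not pass in any comparison, with estimates of 0.02 ± 0.14 and 0.06 ± 0.13 for deltaNp63beta against vector. XAF1, an antagonist of the apoptosis inhibitor XIAP, averaged 20.3 ± 0.85 with deltaNp63beta, 24.8 ± 0.547 with deltaNp63alpha and 25.6 ± 2.11 with vector, and was called in no comparison with the mean-variance trend. Without that trend XAF1 was lower with deltaNp63beta than with vector (adjusted p = 0.00909) and than with deltaNp63alpha (adjusted p = 0.0208).

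The promoters of the set were read from RefSeq windows of GRCh38.p14, from 250 bases before to 50 bases after each transcript start. A window was found for 39 of the 48 genes by symbol. An ISRE was searched as GAAA, any 2 bases and GAAA, and a GAS as TTC, any 3 bases and GAA, on both strands. An ISRE match lay in the window of 26 of the 39 genes (66.7%), beside 4.38% of 27305 genes in the same table and 3.57% of its 35116 windows. A GAS match lay in 11 of the 39 (28.2%), beside 9.38% of all genes and 7.66% of all windows. In 5 genes (BST2, EPSTI1, IFI27, IFITM1 and MX1) a GAS match shared bases with an ISRE match. A match is a description of the letters and does not show that a factor binds. The genes were listed for their response to interferon, which acts through these elements. A higher share than among all genes thus comes with the choice of list and does not describe these libraries.

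Of the tested genes with an ISRE match, 17 of 25 rose and 1 fell with deltaNp63beta against vector, and of those with a window but no match, 5 of 13 rose and 1 fell. With deltaNp63alpha 0 of the 25 rose and 2 fell, and 1 of the 13 rose and 2 fell. Of all genes, 21.8% were called higher and 19.5% lower with deltaNp63beta, and 8.13% and 6.37% with deltaNp63alpha. The counts by match are given without a test. Genes with and without a match were thus found among those that rose, and also among those that did not. OAS1, HERC6, RIGI, IFI16 and UBE2L6 rose with deltaNp63beta and had no ISRE match in the window. MX1, RSAD2, DDX60L, ISG15, HERC5, PARP9 and IFI6 had 1 or more and did not pass with deltaNp63beta against vector.

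The bases just before the start are printed for 7 genes, 5′ to 3′ on the gene's strand, with ISRE matches in capitals. A match on the other strand reads TTTC, any 2 bases and TTTC. DDX60, IFITM3, IFI44L, IFIH1, IFI27 and IFITM1 were picked among the genes called against vector that held an ISRE match before the start. Of those genes they had the largest absolute changes with either isoform, so holding a match was a condition of being shown. DDX60, IFIH1, IFITM3 and IFITM1 rose with deltaNp63beta, the rise of IFI27 rested on most single libraries, and IFI44L fell with both isoforms. ISG15, which also holds a match, was added after its values were seen, because it did not pass in any comparison. The positions are chr4:168318753-168318927 (minus strand) for DDX60, chr2:162318685-162318859 (minus) for IFIH1, chr11:320861-321035 (minus) for IFITM3, chr11:313865-314039 (plus) for IFITM1, chr14:94110561-94110735 (plus) for IFI27, chr1:78620273-78620447 (plus) for IFI44L and chr1:1013322-1013496 (plus) for ISG15.
DDX60: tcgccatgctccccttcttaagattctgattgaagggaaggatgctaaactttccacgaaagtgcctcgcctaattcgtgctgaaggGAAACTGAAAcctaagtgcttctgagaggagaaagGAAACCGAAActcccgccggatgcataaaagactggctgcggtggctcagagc
IFIH1: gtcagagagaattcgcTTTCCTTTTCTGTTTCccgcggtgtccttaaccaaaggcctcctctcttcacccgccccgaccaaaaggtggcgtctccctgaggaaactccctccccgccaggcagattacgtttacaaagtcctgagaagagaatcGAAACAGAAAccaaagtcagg
IFITM3: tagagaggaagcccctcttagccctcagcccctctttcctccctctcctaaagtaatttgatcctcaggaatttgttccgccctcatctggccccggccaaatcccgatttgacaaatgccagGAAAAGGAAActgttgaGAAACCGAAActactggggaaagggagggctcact
IFITM1: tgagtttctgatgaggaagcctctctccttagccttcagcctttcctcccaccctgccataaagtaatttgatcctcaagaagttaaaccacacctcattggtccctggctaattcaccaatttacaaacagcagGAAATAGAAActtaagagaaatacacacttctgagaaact
IFI27: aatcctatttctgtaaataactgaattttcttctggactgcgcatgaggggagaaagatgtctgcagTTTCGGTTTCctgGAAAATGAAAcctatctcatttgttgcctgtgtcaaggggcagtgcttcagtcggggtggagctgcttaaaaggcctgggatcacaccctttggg
IFI44L: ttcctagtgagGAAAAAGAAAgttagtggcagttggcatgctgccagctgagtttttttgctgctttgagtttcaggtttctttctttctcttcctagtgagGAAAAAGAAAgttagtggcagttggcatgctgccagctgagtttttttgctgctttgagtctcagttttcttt
ISG15: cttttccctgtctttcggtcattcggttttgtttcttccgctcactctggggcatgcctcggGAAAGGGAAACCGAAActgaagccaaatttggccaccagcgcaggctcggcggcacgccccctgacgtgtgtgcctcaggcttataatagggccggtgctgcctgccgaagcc
DDX60 carried 2 separate matches, beginning 88 and 53 bases before the start, and IFITM3 carried 2, beginning 52 and 35 bases before it. In IFIH1 a pair of overlapping matches on the other strand began 159 and 153 bases before the start, and 1 more match began 21 bases before it. The ISG15 promoter, whose gene did not pass the test, held a pair of overlapping matches beginning 113 and 107 bases before the start. IFI44L, which fell, held the same 10 letters at 164 and 73 bases before the start, each inside a longer repeated stretch. IFITM1 had a further match that began 6 bases before the start and ran past it, so it is not in capitals.

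**Figure D4:**
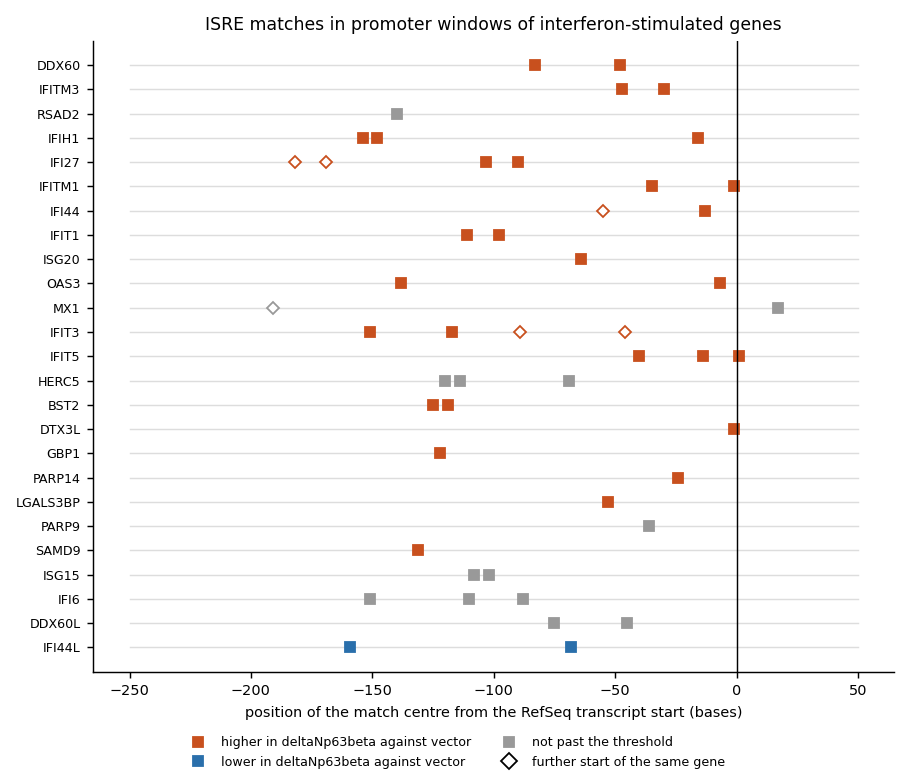
Position of ISRE matches (x axis, bases from the RefSeq transcript start, match centre) in the promoter windows of 25 tested interferon-stimulated genes that hold 1, ordered by change with deltaNp63beta. Orange genes rose with deltaNp63beta against vector, blue fell and grey did not pass, and open diamonds belong to a further start of the same gene. Genes of all 3 colours hold matches in the 200 bases before the start.

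Interferon itself was looked for first among the other parts of the pathway. None of 10 interferon genes (IFNB1, IFNE, IFNK, IFNL1, IFNL2, IFNL3, IFNA1, IFNA2, IFNW1 and IFNG) passed the filter on low values in these libraries. The highest value was 4.74, for IFNE in deltaNp63alpha replicate 2, and IFNB1, IFNL3, IFNA2, IFNW1 and IFNG were listed at 0 in all 9 libraries. Interferon protein was not measured.

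Of 9 receptor subunits and JAK kinases, 4 rose and 2 fell with deltaNp63beta against vector. Of all genes, 21.8% were called higher and 19.5% lower there. With deltaNp63alpha against vector 1 rose and 0 fell, beside 8.13% of all genes higher and 6.37% lower. Between the isoforms 1 was higher and 2 lower with deltaNp63beta, beside 17.4% of all genes higher and 15.5% lower. The type I receptor genes IFNAR1 and IFNAR2 did not pass in any comparison, at 0.00 ± 0.08 and 0.03 ± 0.09 with deltaNp63beta against vector. IFNGR1 and IFNGR2, the subunits of the type II receptor, rose with deltaNp63beta by 0.44 ± 0.06 (adjusted p = 7.94e-05) and 0.43 ± 0.05 (adjusted p = 4.71e-05). IFNGR2 rose also with deltaNp63alpha, by 0.39 ± 0.05 (adjusted p = 0.000379), and IFNGR1 did not pass there (-0.02 ± 0.06). The kinases that associate with the type I receptor fell with deltaNp63beta, JAK1 by 0.31 ± 0.04 (adjusted p = 0.000138) and TYK2 by 0.34 ± 0.07 (adjusted p = 0.00289).

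Among 12 genes that sense nucleic acid or induce interferon, 4 rose and 3 fell with deltaNp63beta against vector, and 1 rose and 1 fell with deltaNp63alpha. Of all genes, 21.8% were called higher and 19.5% lower with deltaNp63beta, and 8.13% and 6.37% with deltaNp63alpha. TICAM1, the adaptor of TLR3, rose with deltaNp63beta by 0.54 ± 0.07 (adjusted p = 9.24e-05) and with deltaNp63alpha by 0.35 ± 0.07 (adjusted p = 0.00639). TLR3, the endosomal receptor for double-stranded RNA, rose with deltaNp63beta by 0.55 ± 0.10 (adjusted p = 0.00124) and not detectably with deltaNp63alpha (-0.14 ± 0.10, adjusted p = 0.429). CGAS, the cytosolic DNA sensor, rose with deltaNp63beta by 0.55 ± 0.08 (adjusted p = 0.000181). MAVS, the mitochondrial adaptor of RIG-I and MDA5, fell with deltaNp63beta by 0.23 ± 0.05 (adjusted p = 0.00195). Of 8 negative regulators, 2 rose and 2 fell with deltaNp63beta and 1 rose with deltaNp63alpha, beside the same shares of all genes. PTPN1, a phosphatase that acts on JAK2 and TYK2, averaged 3805 ± 254 with deltaNp63beta, 5787 ± 107 with deltaNp63alpha and 4355 ± 168 with vector. PTPN1 fell by 0.20 ± 0.05 with deltaNp63beta (adjusted p = 0.0111) and rose by 0.41 ± 0.05 with deltaNp63alpha (adjusted p = 0.000293), the opposite order to IFITM2 and BST2.

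**Figure D5:**
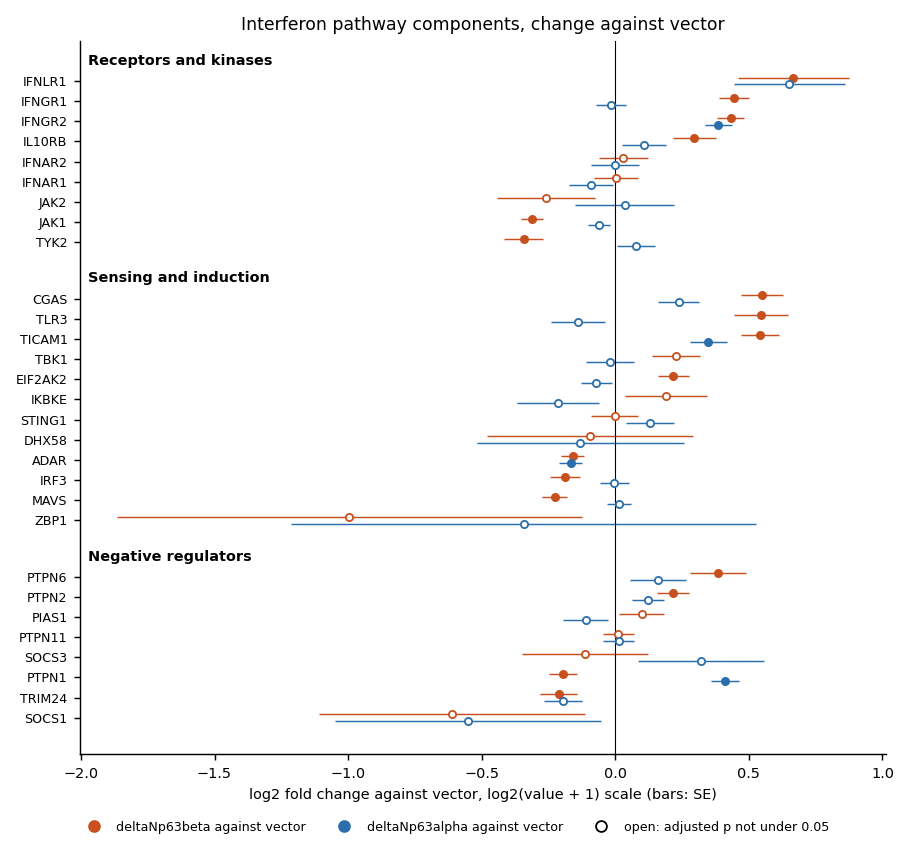
Log2 fold change against vector (x axis, log2(value + 1) scale, bars are SE) of receptors and kinases, of sensing and induction genes and of negative regulators, for deltaNp63beta (orange) and deltaNp63alpha (blue). Filled points have an adjusted p under 0.05. Filled deltaNp63beta points lie on both sides of 0 in each of the 3 groups, from -0.34 for TYK2 to 0.67 for IFNLR1.

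Of 30 other genes known to respond to interferon, 27 were tested, and 13 rose and 2 fell with deltaNp63beta against vector, 2 rose and 1 fell with deltaNp63alpha, and 10 were higher and 2 lower with deltaNp63beta than with deltaNp63alpha. Of all genes, 21.8% were called higher and 19.5% lower with deltaNp63beta against vector, and 8.13% and 6.37% with deltaNp63alpha. Between the isoforms 17.4% of all genes were called higher and 15.5% lower with deltaNp63beta. The median change of the 27 was 0.35 with deltaNp63beta and 0.06 with deltaNp63alpha. CXCL10, CXCL11, BATF2 and GBP4 would have missed the filter on low values without the deltaNp63beta libraries. Of the other 23 genes, 11 rose and 2 fell with deltaNp63beta against vector, 8 were higher and 2 lower than with deltaNp63alpha, and the median change with deltaNp63beta was 0.25. IFI30, a lysosomal thiol reductase, rose by 1.12 ± 0.06 with deltaNp63beta (adjusted p = 1.27e-07) and by 0.36 ± 0.06 with deltaNp63alpha (adjusted p = 0.00294). TNFSF10, which encodes the death ligand TRAIL, had 124, 125 and 99 with deltaNp63beta, 35.2, 37.8 and 27.5 with deltaNp63alpha and 14.2, 20 and 10.9 with vector. It rose by 2.90 ± 0.27 with deltaNp63beta (adjusted p = 8.53e-06) and by 1.13 ± 0.27 with deltaNp63alpha (adjusted p = 0.0173), and the deltaNp63alpha call was lost without deltaNp63alpha replicate 1 (adjusted p = 0.054), deltaNp63alpha replicate 2 (adjusted p = 0.0662) or vector replicate 3 (adjusted p = 0.0575).

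CXCL11, a chemokine that draws CXCR3-bearing T cells, had 93, 86.7 and 75.8 with deltaNp63beta, 8.71, 2.59 and 4.65 with deltaNp63alpha and 3.34, 4.85 and 2.28 with vector. It passed the filter on low values only through the deltaNp63beta libraries, so a difference was built into its being tested, and its rise of 4.30 ± 0.47 (adjusted p = 2.53e-05) is given as a description. The same holds for CXCL10, a related chemokine, which averaged 12.3 ± 3.02 with deltaNp63beta and reached at most 2.75 in the other 6 libraries. PLSCR1, a phospholipid scramblase, rose by 0.59 ± 0.07 with deltaNp63beta (adjusted p = 4.4e-05) and gave 0.15 ± 0.07 with deltaNp63alpha (adjusted p = 0.186). PARP10, an ADP-ribosyltransferase, fell by 0.71 ± 0.11 with deltaNp63alpha (adjusted p = 0.00151) and gave 0.09 ± 0.11 with deltaNp63beta (adjusted p = 0.569).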

How the data were processed

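Signal values were deposited by the authors as 1 table per library. Per the submitters' processing notes they are normalized estimated counts per gene, for which the notes name kallisto 0.46.2, GRCh38 and DESeq2 (no version). Which step produced the deposited signal, and whether counting used strand, is not given in the sources used here. Whole reads were not recovered from the steps between low values (60.9% to 63.7% of values whole within 0.1 step). The deposited values were therefore tested on log2(value + 1) with limma 3.58.1 (R 4.3.3), using its robust moderation and mean-variance trend. The pseudocount of 1 makes fold changes of low genes smaller than the ratio of their means. A gene entered the test if 3 or more libraries reached a value of 10, which left 15108 genes. All groups were fitted together from 9 libraries without a block. The threshold was a Benjamini-Hochberg adjusted p of 0.05. Counting intervals need whole counts and are not given. The labels give biological replicates and no batch or date.

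The genes and the lists were chosen with earlier results of these data known. Each of the 48 genes may be named within its role. Values in every library are given for up to 12 of them per comparison with the largest change past the threshold, for the transcription factors and for TP63. From each pathway list up to 4 genes by smallest adjusted p are named. MX1, HERC5, SAMD9L, USP18, IFNAR1, IFNAR2, IFNLR1, IL10RB, TNFSF10, CXCL10, CXCL11, BATF2 and GBP4 got values or mention beyond this rule after their values were seen. Gene positions came from GENCODE release 29 (GRCh38). Of the 48 genes, 25 overlap another gene and 9 do so on the same strand. Some genes of the pathway and marker lists are not reported here. Promoter sequences came from RefSeq (GRCh38.p14). Alternatives were other scalings (median-of-ratios factors, equal totals, quantile normalization), other filters on low values, a pseudocount of 0.1, only the 2 groups compared, a replicate block, no mean-variance trend, and leaving out each library. Files were read with Python 3.11.15 (numpy 2.4.6, pandas 2.3.3), and figures were drawn with matplotlib 3.10.9.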

Additional observations from a re-analysis of the deposited data

Results flagged for a closer look

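IFITM2 and BST2 were the interferon-stimulated genes that passed the test in opposite directions with the isoforms, higher than vector with deltaNp63beta and lower than vector with deltaNp63alpha. The difference between deltaNp63beta and deltaNp63alpha, tested directly with limma, was 0.72 ± 0.06 on the log2 scale in IFITM2 (3404 ± 176 with deltaNp63beta and 2073 ± 108 with deltaNp63alpha, adjusted p = 5.41e-06). In BST2 it was 0.88 ± 0.06 (1589 ± 105 with deltaNp63beta and 862 ± 15.6 with deltaNp63alpha, adjusted p = 1.1e-06). All 3 deltaNp63beta libraries were above all 3 deltaNp63alpha libraries in both genes. Passing this direct test was itself a condition of being flagged, and both comparisons with vector share the vector libraries. The difference and the separation are therefore given as a description and not as further evidence.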

How the results depend on the processing

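No call among the 46 tested interferon-stimulated genes changed sign under any alternative that was run. With deltaNp63beta against vector, 24 to 29 genes rose and 1 to 2 fell when 1 library was left out, against 27 and 2 with all 9. Between deltaNp63beta and deltaNp63alpha, 27 to 31 rose and 0 fell. With deltaNp63alpha against vector, 0 to 1 rose and 5 to 7 fell. The single rise with deltaNp63alpha, IRF9, was the least stable count: 0 genes rose with no filter on low values, 0 with only the 2 groups compared and 0 with the replicate block, and 2 rose among genes with a mean of at least 50, where IFI16 was added. With no filter 1 gene, IFI44L, fell with deltaNp63beta against vector. Without the mean-variance trend 1 gene, XAF1, was lower with deltaNp63beta than with deltaNp63alpha, and the 2 that fell with deltaNp63beta against vector were IFI44L and XAF1 (adjusted p = 0.00909) in place of IFI44L and IRF1 (adjusted p = 0.0795). Over all genes, leaving out 1 library gave 920 to 1239 higher and 640 to 1022 lower with deltaNp63alpha against vector (1229 and 963 with all 9). The number lower was 640 to 680 without a vector library and 642 to 771 without a deltaNp63alpha library. It was 897 to 1022 without a deltaNp63beta library. The cause was not tested.

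Same-numbered libraries did not deviate together, so the numbers were not taken as pairing: deviations from the group means correlated at -0.12 to 0.08 within a number and at -0.14 to 0.12 across numbers. With the replicate block, 25 genes rose and 2 fell with deltaNp63beta against vector, 29 were higher with deltaNp63beta than with deltaNp63alpha, and 0 rose and 5 fell with deltaNp63alpha. The scalings moved the median of all genes by at most 0.04. The low values of MX1, MX2, OAS2, RSAD2, CMPK2 and XAF1 limit what can be seen in them, with SE up to 0.79.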
